A study of Mus musculus with 16 samples.

Results

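Cholesterol synthesis was followed through 8 genes in enriched tumour cells: Srebf2, which encodes the transcription factor SREBP2, its regulator gene Insig1, and the enzyme genes Hmgcs1, Mvk, Fdps, Sqle, Cyp51 and Nsdhl. They were taken by name, and all 8 were found among the 24334 mouse genes of the deposited table and among the 15715 genes tested. The 4 groups were TMP195, MYCi975, the 2 compounds together (Combo) and Vehicle, which was DMSO, with 4 libraries each, numbered 1 to 4. All mice carried tumours of LLC1, an established mouse Lewis lung carcinoma cell line, and were treated for 16 days. TMP195 inhibits class IIa histone deacetylases and MYCi975 inhibits the transcription factor MYC; either compound alone was dosed at 50 mg/kg, while doses in Combo are not stated. Strain, sex and age are not stated, and no label ties a library to an animal.

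All 8 genes were lower on average in each treated group than in Vehicle, but none passed the test over all genes, in any of 6 comparisons. The size of the differences, and in part their direction, moved with a few libraries. Vehicle replicate 4 held the highest value of all 16 libraries for 7 of the 8 genes, whereas Vehicle replicate 3 lay among the lowest 3 for 3 of them. Without Vehicle replicate 4, 7 of 8 genes were lower in TMP195. Without all libraries numbered 4, 5 of 8 were lower in Combo and 3 were higher. Over all 16 libraries, the 7 other genes followed Srebf2 with Pearson's r from 0.55 to 0.81, and all 7 passed, though the rank relation of Mvk did not. Without the 2 libraries most extreme in Srebf2, none of the 7 passed, a choice that also narrows the range of Srebf2. After quantile normalisation, r did not pass for Insig1, Fdps and Nsdhl. Within groups, Pearson's r ran from 0.44 to 0.80, and Cyp51, Sqle and Insig1 passed.

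Cells build cholesterol from acetyl-CoA through mevalonate and squalene. When sterols in the endoplasmic reticulum are scarce, the carrier protein SCAP takes SREBP2 to the Golgi, where 2 proteases release its active part, which enters the nucleus and switches on the genes of nearly every enzyme of the pathway, Insig1 and Srebf2 itself. When sterols are plentiful, INSIG proteins hold SCAP and SREBP2 back. SREBP2 activity is thus set mainly by processing of the protein, which RNA levels do not measure. Proliferating tumour cells draw on the pathway for membranes and for the isoprenoid groups that anchor small GTPases.

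SREBP proteins bind a sterol regulatory element (SRE) and act beside the factor NF-Y, which binds the CCAAT box. The start regions of members are therefore shown first, as reference sequence only. RefSeq windows (GRCm38.p6) were matched by symbol for 6 of the 8 members, not for Fdps and Sqle. The 250 bases before each start were searched on both strands for the SRE TCACNCCAC and for its first 7 letters, TCACNCC. They were also searched for the box CCAAT named above, for the E-box CACGTG, which MYC can bind, and for the letters GGGCGG, which Sp1 binds. These letters were chosen after some of the windows had been seen. The CCAAT box was found in 6 of 6 member windows, against 33.8% of 32851 windows of all genes, and GGGCGG in 6 of 6, against 32.7%. TCACNCC was found in Srebf2 and Hmgcs1, against 13.4% of all windows. TCACNCCAC, whose 7-letter part overlaps it by construction, was found in Hmgcs1 alone of the 6, against 1.05%. The E-box was found in Insig1 alone of the 6, against 6.02%. A match is a run of letters and not a measured site.

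Of the windows, 4 are printed 5′ to 3′ on the gene's strand, without bases that GENCODE M21 puts in an exon. The Srebf2 window (chr15:82147019-82147180, plus strand) shows an SRE core and a CCAAT box in the gene of the regulator. The Hmgcs1 window (chr13:119690101-119690350, plus strand) holds the 9-letter SRE, the Mvk window (chr5:114444061-114444268, plus strand) 5 CCAAT boxes, and the Insig1 window (chr5:28071162-28071362, plus strand) the E-box. Capitals mark the SRE letters, the CCAAT box on either strand (read as ATTGG on the other), and the E-box.
Srebf2: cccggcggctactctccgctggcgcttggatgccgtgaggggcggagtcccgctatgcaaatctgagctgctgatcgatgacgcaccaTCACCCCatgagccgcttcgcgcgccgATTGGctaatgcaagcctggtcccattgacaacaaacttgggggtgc
Hmgcs1: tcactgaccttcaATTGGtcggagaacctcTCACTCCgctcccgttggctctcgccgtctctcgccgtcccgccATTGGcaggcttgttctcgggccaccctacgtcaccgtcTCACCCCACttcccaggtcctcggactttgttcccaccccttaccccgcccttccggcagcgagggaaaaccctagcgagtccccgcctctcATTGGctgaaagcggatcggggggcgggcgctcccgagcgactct
Mvk: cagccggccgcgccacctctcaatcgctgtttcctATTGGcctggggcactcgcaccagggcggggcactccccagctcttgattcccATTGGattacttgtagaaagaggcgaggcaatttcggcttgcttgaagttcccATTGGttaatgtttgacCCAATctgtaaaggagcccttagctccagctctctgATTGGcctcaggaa
Insig1: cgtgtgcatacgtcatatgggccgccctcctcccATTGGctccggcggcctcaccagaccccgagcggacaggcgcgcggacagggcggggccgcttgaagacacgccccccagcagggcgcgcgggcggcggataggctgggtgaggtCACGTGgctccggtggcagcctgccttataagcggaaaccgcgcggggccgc

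Values are variance-stabilised counts, close to a log2 scale, as the authors deposited them. The lowest value, 4.84, was shared by 1960 to 3130 genes in each library, and the depth of each library is unknown. The values are not per length, so levels are compared between libraries and not between genes. On the first principal component, replicate 4 of TMP195, MYCi975 and Vehicle scored 32.0, 26.6 and 33.2, against at most 5.90 in the other 13 libraries. Of the epithelial markers, Krt8 ran from 10.17 to 10.97 over the 16 libraries, Krt18 from 10.18 to 11.45 and Krt19 from 5.18 to 7.37. Epcam was at the lowest value in 9 libraries and Cdh1 in 5, and Nkx2-1 and Sftpc were not found in the deposited table. Leukocyte markers were also present: the mean of 9 of them ran from 6.33 to 7.74 in TMP195, from 6.04 to 7.01 in MYCi975, from 6.02 to 6.51 in Combo and from 6.09 to 6.58 in Vehicle. In such bulk samples, fewer cells of a type and less RNA per cell cannot be told apart. Myc itself was 0.08 from Vehicle with TMP195, -0.21 with MYCi975 and -0.24 with Combo (SE 0.21 each), and since both compounds act on proteins its RNA does not check the treatment.

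**Figure D1:**
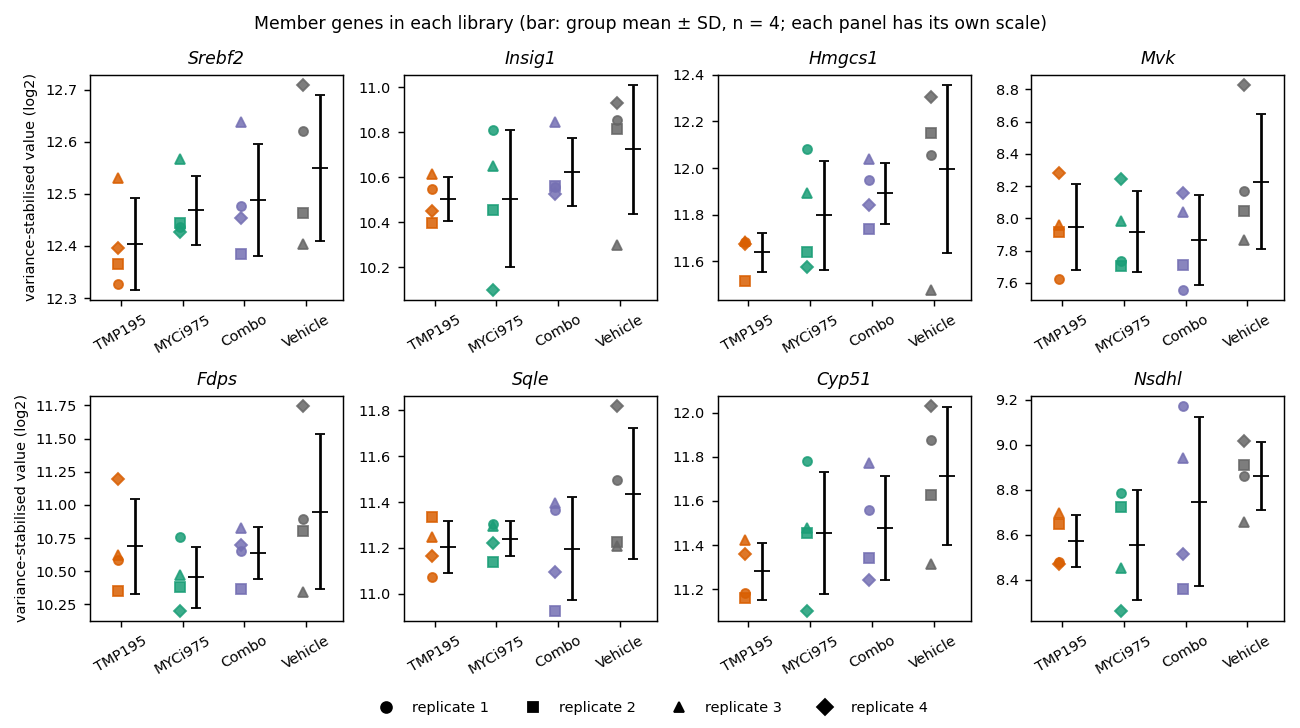
Values of the 8 genes in each library (y axis, variance-stabilised value on a log2 scale, 1 scale per panel) by group (x axis). Symbols give the replicate number, and bars the group mean ± SD (n = 4). Vehicle holds both the highest value of most panels, from replicate 4, and low values, from replicate 3.

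Srebf2 (ENSMUSG00000022463.9, chromosome 15) was examined first as the regulator. It stood at 12.33, 12.36, 12.53 and 12.40 in TMP195 replicates 1 to 4, at 12.44, 12.44, 12.57 and 12.43 in MYCi975, at 12.48, 12.38, 12.64 and 12.45 in Combo, and at 12.62, 12.46, 12.40 and 12.71 in Vehicle. The groups overlapped, and Vehicle held both the highest library and one of the lower ones. Differences from Vehicle were -0.15 for TMP195, -0.08 for MYCi975 and -0.06 for Combo (SE 0.09 each; limma adjusted p = 0.945, 0.999 and 0.988), and the 95% interval for TMP195 ran from -0.34 to 0.05. The gene is annotated as the host of the microRNA gene Mir33, whose product is known to limit cholesterol export and was not analysed here.

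Insig1 (ENSMUSG00000045294.12, chromosome 5) encodes the protein that holds SCAP and SREBP2 in the endoplasmic reticulum, and it is itself an SREBP target. Its values were 10.55, 10.40, 10.61 and 10.45 in TMP195, 10.81, 10.46, 10.65 and 10.10 in MYCi975, 10.56, 10.56, 10.85 and 10.53 in Combo, and 10.85, 10.81, 10.30 and 10.93 in Vehicle. MYCi975 replicate 4 was the lowest and Vehicle replicate 3 the next, so that both groups spanned most of the range. TMP195 and MYCi975 differed from Vehicle by -0.22 each (SE 0.15) and Combo by -0.10 (SE 0.15), none of them called.

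The mevalonate steps were represented by Hmgcs1, Mvk and Fdps. Hmgcs1 (ENSMUSG00000093930.3, chromosome 13) encodes the cytosolic HMG-CoA synthase at the entrance of the pathway. It reached 11.68, 11.51, 11.68 and 11.67 in TMP195, 12.08, 11.64, 11.89 and 11.57 in MYCi975, 11.95, 11.74, 12.04 and 11.84 in Combo, and 12.05, 12.15, 11.48 and 12.30 in Vehicle. The 4 TMP195 libraries lay close together and below 3 of the 4 Vehicle libraries, but above Vehicle replicate 3. TMP195 differed from Vehicle by -0.36 (SE 0.15, 95% interval -0.68 to -0.04, unadjusted p = 0.0306, limma adjusted p = 0.945), lower than the Vehicle mean in 4 of 4 libraries. MYCi975 and Combo differed by -0.20 and -0.11 (SE 0.15 each). All 4 Combo libraries lay above all 4 TMP195 libraries, a difference of 0.25 (SE 0.15, limma adjusted p = 0.999), and 1.75% of all genes tested were likewise higher without overlap.

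Mvk (ENSMUSG00000041939.15, chromosome 5) encodes mevalonate kinase. Its values were 7.63, 7.92, 7.96 and 8.28 in TMP195, 7.74, 7.70, 7.98 and 8.24 in MYCi975, 7.56, 7.71, 8.04 and 8.16 in Combo, and 8.17, 8.04, 7.87 and 8.83 in Vehicle. The highest library was replicate 4 in each of the 4 groups, which was so for none of the other 7 genes. Its differences from Vehicle were -0.28 for TMP195, -0.31 for MYCi975 and -0.36 for Combo (SE 0.21 each), none of them called.

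Fdps (ENSMUSG00000059743.13, chromosome 3) encodes farnesyl diphosphate synthase, which supplies both sterols and isoprenoids. It stood at 10.58, 10.35, 10.63 and 11.19 in TMP195, at 10.76, 10.39, 10.47 and 10.20 in MYCi975, at 10.66, 10.37, 10.83 and 10.70 in Combo, and at 10.90, 10.80, 10.35 and 11.75 in Vehicle. Vehicle replicate 4 and TMP195 replicate 4 were the highest, and MYCi975 replicate 4 was the lowest. MYCi975 differed from Vehicle by -0.49 (SE 0.23, unadjusted p = 0.0493, limma adjusted p = 0.999), the largest difference of any member, and 4 of 4 libraries lay below the Vehicle mean. The differences were -0.26 for TMP195 and -0.31 for Combo (SE 0.23 each), and without Vehicle replicate 4 the differences were 0.0070 for TMP195, -0.23 for MYCi975 and -0.044 for Combo. Fdps values are uncertain in part, since 5 processed pseudogenes and the overlapping gene Gm43738 share at least 90% of 200 or more bases with its transcript.

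The sterol steps were represented by Sqle, Cyp51 and Nsdhl. Sqle (ENSMUSG00000022351.15, chromosome 15) encodes squalene epoxidase, which makes the first oxygenated sterol precursor. Its values were 11.07, 11.33, 11.25 and 11.16 in TMP195, 11.30, 11.14, 11.30 and 11.22 in MYCi975, 11.36, 10.93, 11.40 and 11.09 in Combo, and 11.50, 11.23, 11.21 and 11.82 in Vehicle. Vehicle replicates 1 and 4 were above every treated library, and Vehicle replicates 2 and 3 lay within their range. Against Vehicle, TMP195 stood at -0.23, MYCi975 at -0.20 and Combo at -0.24 (SE 0.13 each), none of them called.

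Cyp51 (ENSMUSG00000001467.6, chromosome 5) encodes lanosterol 14-alpha-demethylase. It reached 11.18, 11.16, 11.42 and 11.36 in TMP195, 11.78, 11.46, 11.48 and 11.10 in MYCi975, 11.56, 11.34, 11.77 and 11.24 in Combo, and 11.88, 11.63, 11.32 and 12.03 in Vehicle. TMP195 differed from Vehicle by -0.43 (SE 0.16, 95% interval -0.78 to -0.09, unadjusted p = 0.0167, limma adjusted p = 0.945), and 4 of 4 TMP195 libraries lay below the Vehicle mean while overlapping with Vehicle replicate 3. MYCi975 and Combo differed by -0.26 and -0.23 (SE 0.16 each). The gene overlaps Akap9 on the other strand; whether counting used strand is not given in the sources used here, and the same holds for Hmgcs1 and its antisense gene Gm48342.

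Nsdhl (ENSMUSG00000031349.5, chromosome X) encodes a sterol dehydrogenase that takes part in removing the methyl groups at carbon 4. Its values were 8.48, 8.65, 8.70 and 8.47 in TMP195, 8.79, 8.72, 8.45 and 8.26 in MYCi975, 9.17, 8.36, 8.94 and 8.52 in Combo, and 8.86, 8.91, 8.66 and 9.01 in Vehicle. The highest library was Combo replicate 1, the only case among the 8 genes where it was not Vehicle replicate 4. Against Vehicle, TMP195 stood at -0.29, MYCi975 at -0.31 and Combo at -0.11 (SE 0.17 each), none of them called.

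The treated groups were then set against Vehicle for the 8 genes together. In TMP195, 8 of 8 were lower, as were 53.7% of all genes tested, with a median difference of -0.27 against -0.01 for all genes. In MYCi975, 8 of 8 were lower, as were 52.9% of all genes, with a median of -0.24 against -0.01. In Combo, 8 of 8 were lower, as were 52.6% of all genes, with a median of -0.17 against -0.01. No member was called in these comparisons (limma adjusted p under 0.05), and the share of all genes called was 0% in each. At an unadjusted p under 0.05, Cyp51 and Hmgcs1 were lower in TMP195 (2.44% of all genes), Fdps in MYCi975 (1.51%) and no member in Combo (1.92%). No member had treated libraries that all lay below all Vehicle libraries, a pattern found in 1.4% of genes for TMP195, 0.706% for MYCi975 and 1.53% for Combo. The 3 comparisons share the 4 Vehicle libraries, so their directions are not independent of each other.

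**Figure D2:**
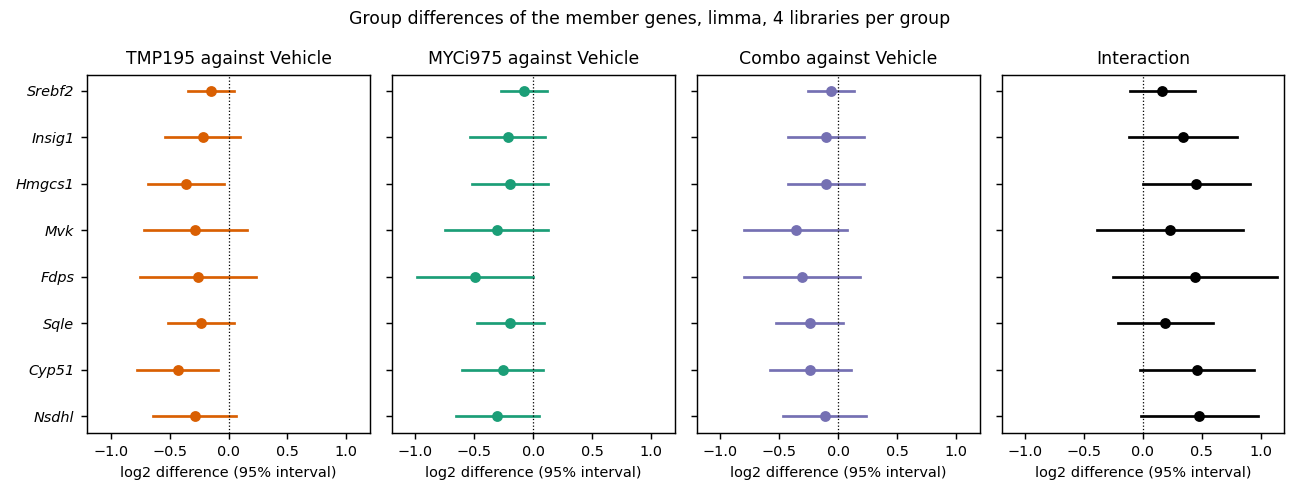
Log2 differences of the 8 genes (x axis, with 95% intervals from limma, 4 libraries per group) for each treatment against Vehicle and for the interaction. All points lie below 0 for the treatments and above 0 for the interaction, and most intervals include 0.

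The order of the group means was looked at next. Vehicle had the highest mean for all 8 genes. TMP195 had the lowest for Srebf2, Insig1, Hmgcs1 and Cyp51, MYCi975 for Fdps and Nsdhl, and Combo for Mvk and Sqle. Neighbouring means differed by 0.0016 to 0.28, less than the larger SD of each neighbouring pair. Combo differed from MYCi975 by -0.05 to 0.19, with 6 of 8 genes higher (50.2% of all genes) and a median of 0.06. From TMP195 it differed by -0.08 to 0.25, with 5 of 8 higher (50.7% of all genes) and a median of 0.10. No member was called in either, at 0% of all genes, and the smallest unadjusted p was 0.114, for Hmgcs1 against TMP195.

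The interaction, the Combo minus the MYCi975 minus the TMP195 plus the Vehicle mean, asks whether the compounds together differ from the sum of each alone. It was above 0 for 8 of 8 members (51.8% of all genes), with a median of 0.39 against 0.01. The largest values were 0.48 for Nsdhl (SE 0.24), 0.46 for Cyp51 (SE 0.23) and 0.45 for Hmgcs1 (SE 0.22). None was called by limma (0% of all genes), and no unadjusted p was under 0.05, the smallest being 0.0501 for Hmgcs1. The interaction contains the same Vehicle libraries as the comparisons above, and without Vehicle replicate 4 the median was 0.22.

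Most of the spread among the 8 genes lay between libraries of a group. Vehicle replicate 4 was among the highest 3 of 16 libraries for 8 of 8 genes, at 0.55 above the gene means on average. Combo replicate 3 was among the highest 3 for 4 genes and Vehicle replicate 1 for 5. At the other end, TMP195 replicate 2 and MYCi975 replicate 4 were each among the lowest 3 for 5 genes and TMP195 replicate 1 for 4. The SD over 4 libraries was largest in Vehicle for 6 of 8 genes, as it was for 25.9% of all genes tested. The median SD of the members was 0.11 in TMP195, 0.24 in MYCi975, 0.21 in Combo and 0.30 in Vehicle, against 0.21, 0.22, 0.17 and 0.21 for all genes in the same order.

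The member medians were recomputed with libraries left out. Without Vehicle replicate 4 the member median was -0.13 for TMP195, -0.13 for MYCi975 and -0.05 for Combo, with 7, 8 and 8 of 8 genes lower and none at an unadjusted p under 0.05. Without Vehicle replicate 3 the medians were -0.38, -0.37 and -0.30, against -0.02, -0.01 and -0.01 for all genes. In that fit 4, 4 and 5 members reached an unadjusted p under 0.05, still with none called, and the share of all genes at that level is not reported here. Vehicle replicate 3 averaged -0.18 from the gene means of the members. Leaving it out therefore widens the differences by construction, as leaving out replicate 4 narrows them. Without all libraries numbered 4 they were -0.18, -0.05 and -0.03, with 8, 8 and 5 of 8 genes lower.

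Other features of these libraries were read beside the members, and their part in the result was not tested. All 8 leukocyte markers tested of 9 were higher in TMP195 than in Vehicle (median 0.73), and with their mean as a covariate the member median for TMP195 was -0.25 with 8 of 8 lower, none then at an unadjusted p under 0.05. Of 12 macrophage markers, 7 could be tested and 7 of 7 were higher in TMP195 (median 0.63), 3 in MYCi975 (median -0.07) and 5 in Combo (median 0.07). In TMP195, 5 of them had an unadjusted p under 0.05, and the share of all genes higher at that level is not reported here. All 10 mitosis genes were lower in each treated group, the medians being -0.25 (TMP195), -0.15 (MYCi975) and -0.23 (Combo). Their mean was 11.06 in Vehicle replicate 3 and 11.46 in Vehicle replicate 4. All 10 hypoxia genes were higher in TMP195 (median 0.38), while 9 were lower in MYCi975 (median -0.14) and 10 in Combo (median -0.17). The mean of the hypoxia genes was 11.33 in Vehicle replicate 3 and 10.79 in Vehicle replicate 4. Over all genes tested, 53.7% were lower in TMP195, 52.9% in MYCi975 and 52.6% in Combo. Of 10 genes induced by tissue dissociation, 9 were lower in TMP195 (median -0.31), 8 in MYCi975 (median -0.12) and 9 in Combo (median -0.20). No gene of these lists was called in these fits, but Csf1r and Ccr2 of the macrophage list were called without TMP195 replicate 3.

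**Figure D3:**
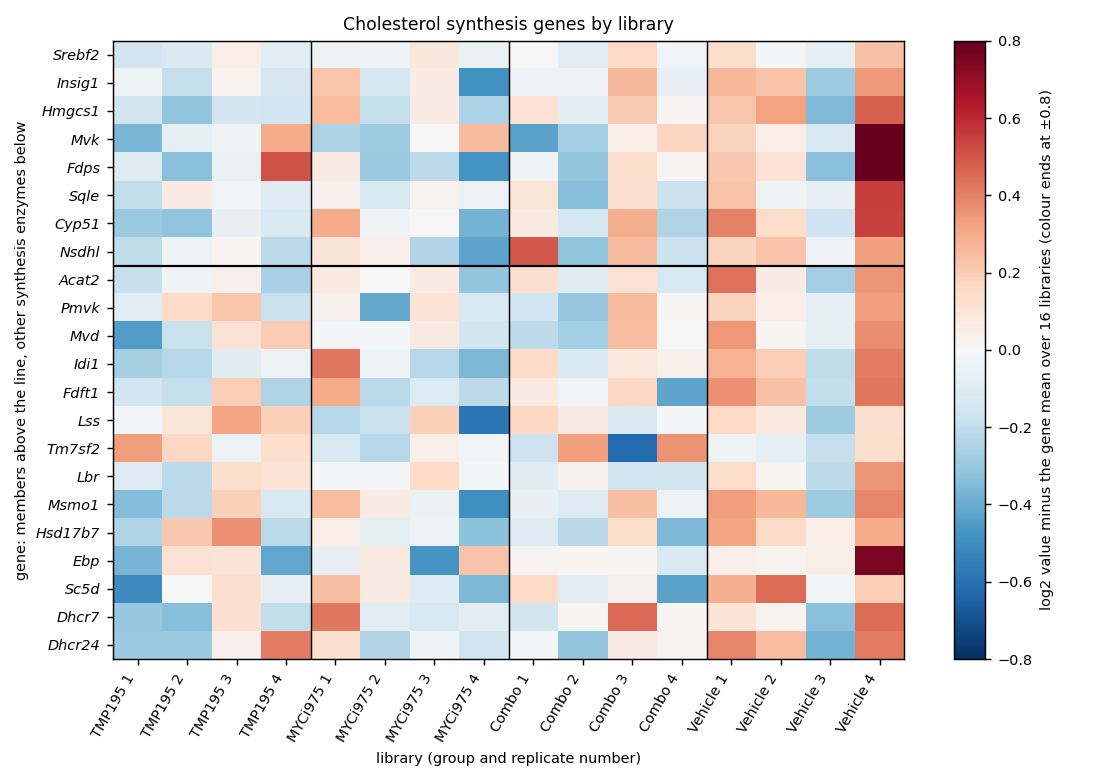
Values of the 8 genes (above the line) and of 14 of the 15 other cholesterol synthesis enzymes (below it), less the mean of each gene over 16 libraries (colour, log2 scale, ending at ±0.8), in each library (x axis). Most rows are highest in Vehicle replicate 4, and many are low in Vehicle replicate 3.

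As SREBP2 activates the other members, each was compared with Srebf2 over the 16 libraries, 7 relations in all, with permutation p-values adjusted over the 7. Cyp51 followed Srebf2 with Pearson's r = 0.81 (permutation p = 0.00028, adjusted p = 0.00098) and Spearman's rho = 0.77 (permutation p = 0.00074, adjusted p = 0.00518). Sqle followed with r = 0.80 (permutation p = 0.00013, adjusted p = 0.00091) and rho = 0.70 (permutation p = 0.00361, adjusted p = 0.00684). Hmgcs1 and Insig1 gave r = 0.71 and 0.68 (permutation adjusted p = 0.00387 and 0.00662) with rho = 0.69 and 0.74 (adjusted p = 0.00684 and 0.00535). Fdps, Mvk and Nsdhl gave r = 0.61, 0.60 and 0.55 (permutation adjusted p = 0.0163, 0.0163 and 0.0290). Their rho was 0.56, 0.40 and 0.63 (permutation adjusted p = 0.0286, 0.129 and 0.0159), so that the rank relation of Mvk did not pass. The median r of all other genes with Srebf2 was 0.006, and genes with an r at least as high as a member's ranged from 0.0191% for Cyp51 to 1.87% for Nsdhl.

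The relation was then recomputed in other ways, the first of which, by leaving out extremes, narrows the range of Srebf2 and so can lower r by itself. Without Vehicle replicate 4 and Combo replicate 3, the 2 farthest from the Srebf2 median, r lay between 0.25 for Fdps and 0.66 for Cyp51, and none of the 7 passed (permutation adjusted p from 0.0559 to 0.386). With values centred within each group, r ran from 0.44 to 0.80, and Cyp51, Sqle and Insig1 passed (permutation adjusted p = 0.0243, 0.0243 and 0.0334). Without all libraries numbered 4, r ran from 0.42 to 0.76, and Hmgcs1 and Nsdhl did not pass. With values centred within each group and each replicate number, r ran from 0.60 for Nsdhl to 0.91 for Mvk, and all 7 passed. The permutations there shuffled within groups alone and did not keep the centring by number. Those p-values are therefore too small, and no conclusion is drawn from them. After quantile normalisation, r ran from 0.16 for Nsdhl to 0.74 for Sqle, and Nsdhl, Insig1 and Fdps did not pass. The rank relation then passed for Mvk and Sqle alone (permutation adjusted p = 0.0339 each). The rank relation passed for none of the 7 without the 2 farthest libraries (smallest permutation adjusted p = 0.0508). It passed for Insig1, Cyp51, Sqle and Fdps without all libraries numbered 4, and for all but Mvk and Nsdhl within groups. Within groups and numbers it passed for all 7, under the same limit of the permutations. All genes of a library share its depth and scaling.

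**Figure D4:**
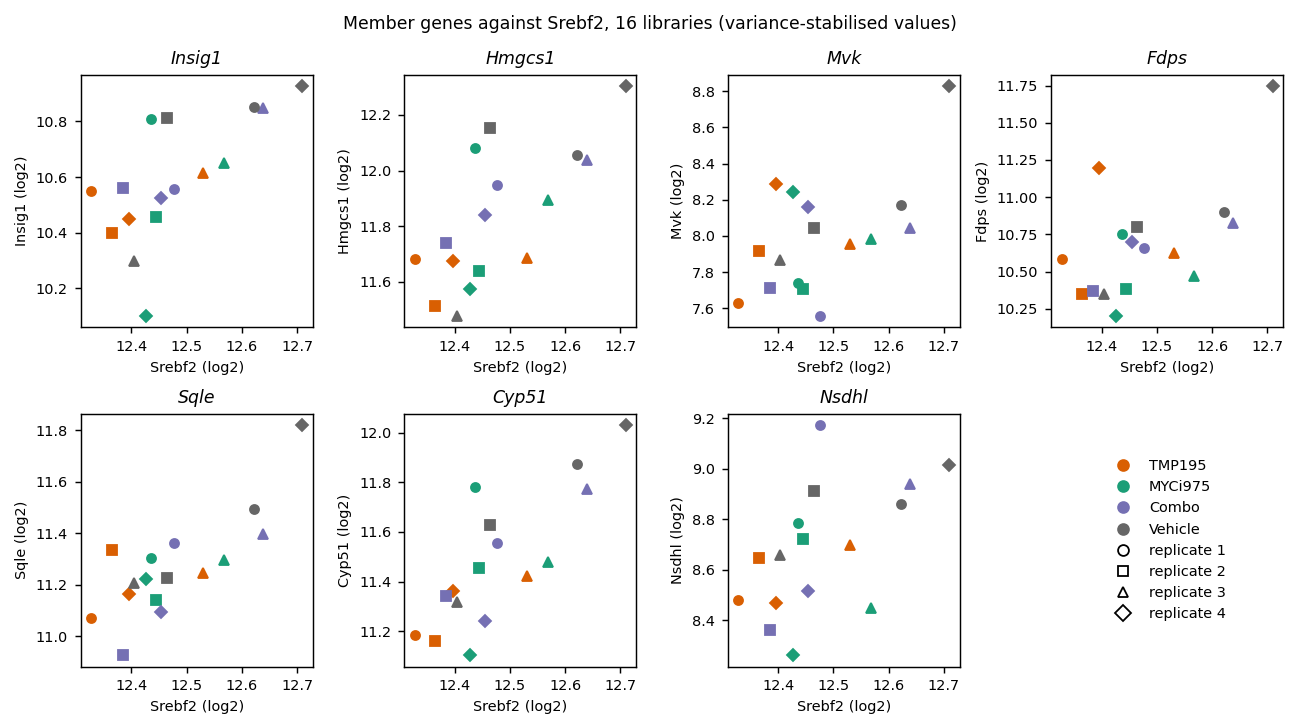
Value of each of 7 genes (y axis, log2 scale) against Srebf2 (x axis, log2 scale) in 16 libraries, with colour for the group and symbol for the replicate number. Vehicle replicate 4 lies at the upper right in each panel, and the library numbered 4 is the highest of each group for Mvk.

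Genes outside the 8 members were ranked by likeness to the members' mean over the 16 libraries. The measure was the root mean square difference between centred values and the centred mean of the members. The lowest were Ints9 (0.11), Pdp2 (0.12), Scrn2 (0.12), Prdx4 (0.12) and Acat2 (0.12), against a median of 0.29 over all genes tested. They were picked as the lowest, so they lie below that median by selection. The members, each part of that mean, were not equally close to it. Sqle, Hmgcs1, Cyp51, Insig1 and Srebf2 lay at 0.11 to 0.12, Nsdhl at 0.18, Fdps at 0.21 and Mvk at 0.24. Among all genes tested, Mvk ranked 3109, Fdps 1668 and Nsdhl 290. Pearson's r between members ran from 0.05 for Mvk with Nsdhl to 0.89 for Insig1 with Hmgcs1 (median 0.66 over 28 pairs). Acat2, which encodes a cytosolic thiolase that makes acetoacetyl-CoA for HMG-CoA synthase, stood at 9.10, 9.25, 9.33 and 9.02 in TMP195, at 9.36, 9.28, 9.35 and 8.97 in MYCi975, at 9.41, 9.19, 9.40 and 9.16 in Combo, and at 9.72, 9.35, 9.01 and 9.64 in Vehicle. Its highest library was Vehicle replicate 1 and its lowest MYCi975 replicate 4.

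The 15 other enzymes of cholesterol synthesis showed directions like those of the members. In TMP195, 13 of 15 were lower than in Vehicle (53.7% of all genes, median -0.24). In MYCi975, 15 of 15 were lower (52.9% of all genes, median -0.22), and in Combo 12 of 15 (52.6% of all genes, median -0.17). None was called, and 1, 0 and 1 were lower at an unadjusted p under 0.05, as were 2.44%, 1.51% and 1.92% of all genes. Without Vehicle replicate 4 the medians were -0.14, -0.14 and -0.08, with 13, 11 and 12 of 15 lower. Without all libraries numbered 4 they were -0.13, -0.06 and -0.06, with 12, 12 and 13 of 15 lower. Without Vehicle replicate 3 they were -0.37, -0.32 and -0.28, with 7, 7 and 5 at an unadjusted p under 0.05. For that fit the share of all genes is not reported here. Idi1, the isopentenyl diphosphate isomerase, differed by -0.33 in TMP195 (SE 0.15) and Sc5d, a sterol desaturase, by -0.33 in TMP195 and -0.31 in Combo (SE 0.16). Hsd17b7, a sterol ketoreductase, differed by -0.30 in MYCi975 and -0.34 in Combo (SE 0.15). Fdft1, squalene synthase, differed by -0.27 in MYCi975 (SE 0.16).

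Genes that bring cholesterol into the cell or move it within the cell were lower in 8 of 9 cases in TMP195 (53.7% of all genes, median -0.13). In MYCi975, 7 of 9 were lower (52.9%, median -0.22), and in Combo 7 of 9 (52.6%, median -0.20). None was called, and 3, 0 and 1 had an unadjusted p under 0.05. Of the 3 in TMP195, 2 were lower (2.44% of all genes), and the 1 in Combo was lower (1.92%). Tmem97, a sterol-responsive membrane protein of the endoplasmic reticulum and lysosome, stood at 8.10, 8.07, 8.35 and 8.09 in TMP195, at 8.35, 8.55, 8.30 and 8.35 in MYCi975, at 8.44, 8.12, 8.44 and 8.12 in Combo, and at 8.79, 8.68, 8.52 and 8.48 in Vehicle. Its TMP195 and Combo libraries lay below all Vehicle libraries (as for 1.4% and 1.53% of all genes), with differences of -0.46 and -0.33 (SE 0.12, limma adjusted p = 0.945 and 0.987). Its highest library was Vehicle replicate 1, and its value in Vehicle replicate 4 was the lowest of the Vehicle libraries. Lrp8, a lipoprotein receptor, differed by -0.31 in MYCi975 (SE 0.15). Npc1, which exports cholesterol from lysosomes, was the exception in TMP195, at 0.30 (SE 0.10).

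Genes that process or restrain SREBP showed no common direction. Of 10, 7 were higher in TMP195 (median 0.08; 46.3% of all genes), 5 in MYCi975 (median -0.0024; 47.1%) and 6 in Combo (median 0.0040; 47.4%). Scap differed from Vehicle by 0.10, -0.01 and -0.01 (SE 0.14 each), and Srebf1, which encodes the relative that drives fatty acid synthesis, by 0.13, 0.13 and 0.0051 (SE 0.16 each). Insig2, the second INSIG gene, was at 0.19 with TMP195, -0.06 with MYCi975 and 0.18 with Combo (SE 0.11 each), where Insig1 differed by -0.22, -0.22 and -0.10. Mbtps1 and Mbtps2, the proteases that cut SREBP, differed by 0.09 in TMP195 (SE 0.09) and by -0.19 in MYCi975 (SE 0.16). Erlin2 differed by 0.15 in MYCi975 and Erlin1 by -0.15 in Combo, both encoding proteins of endoplasmic reticulum membranes.

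Of 12 fatty acid synthesis genes, 10 were lower in each treated group. The medians were -0.10 for TMP195 (53.7% of all genes lower), -0.17 for MYCi975 (52.9%) and -0.09 for Combo (52.6%). Elovl6, an elongase, differed by -0.35 in TMP195 (SE 0.19), the desaturase gene Fads1 by -0.23 in TMP195 and -0.22 in Combo (SE 0.13), Fads2 by -0.40 in MYCi975 (SE 0.19), Me1, malic enzyme, by -0.27 in MYCi975 (SE 0.14), and Fasn, fatty acid synthase, by -0.18 in Combo (SE 0.10). Another 12 genes belong to the isoprenoid branches, which use the product of Fdps for coenzyme Q, dolichol and protein prenylation. Of these 12, 10 were lower in TMP195 (53.7% of all genes, median -0.06), 7 in MYCi975 (52.9%, median -0.01) and 7 in Combo (52.6%, median -0.05). Pdss1 and Pdss2 of coenzyme Q synthesis differed by -0.20 and -0.25 in TMP195 (SE 0.12 and 0.15). In MYCi975, Icmt and Nus1 differed by -0.16 and -0.15, and in Combo the prenyltransferase genes Fnta and Pggt1b by 0.23 and 0.19 (SE 0.12 each). No gene of either list was called, nor had any an unadjusted p under 0.05.

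A further list joined the genes of the sterol sensor LXR itself, genes that LXR switches on, cholesterol exporters and genes of cholesterol oxidation. Its genes were higher in 7 of 9 cases in TMP195 (46.3% of all genes, median 0.11), 5 in MYCi975 (47.1%, median 0.0025) and 5 in Combo (47.4%, median 0.03). None was called. At an unadjusted p under 0.05, 1, 0 and 1 were higher and none was lower. The share of all genes higher at that level is not reported here. The 2 genes lower in TMP195 were both genes of cholesterol oxidation. Abca1, a cholesterol exporter, stood at 8.46, 7.84, 7.78 and 7.87 in TMP195, at 7.21, 7.09, 6.85 and 7.71 in MYCi975, at 7.34, 8.34, 7.66 and 7.77 in Combo, and at 7.27, 7.10, 7.49 and 7.54 in Vehicle. All 4 TMP195 libraries lay above all Vehicle libraries, by 0.64 on average (SE 0.22, limma adjusted p = 0.945), as did 1.1% of all genes, and the highest was replicate 1, the library with the highest leukocyte mean (7.74). Apoe differed by 0.33 in TMP195 (SE 0.18), Abcg1, a further exporter, by -0.34 in MYCi975 (SE 0.23), and Nr1h3, an LXR gene that macrophages express, by 0.18 in MYCi975 (SE 0.19). Mylip, which encodes a ubiquitin ligase that LXR switches on, was higher in Combo than in Vehicle without overlap, by 0.47 (SE 0.16, limma adjusted p = 0.987), as were 1.79% of all genes, and also lay above all libraries of TMP195 (1.75% of genes) and of MYCi975 (0.891% of genes).

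**Figure D5:**
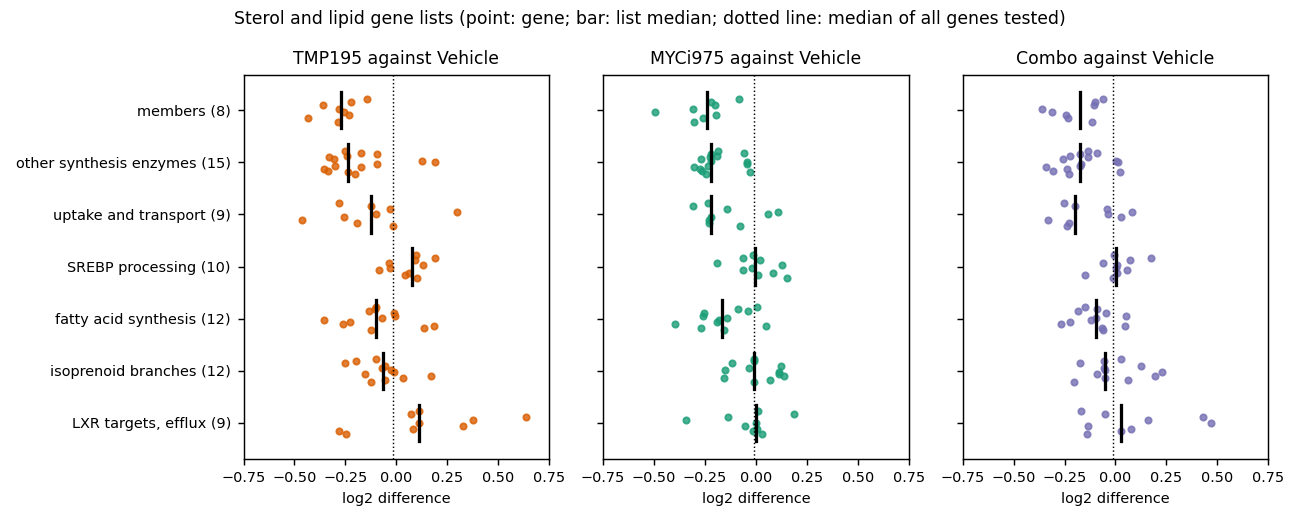
Log2 differences from Vehicle (x axis) of each gene (points) in the 8 members and 6 related lists (rows, with the number of genes tested), by treatment. Bars give list medians and the dotted line the median of all genes tested. The medians of the members, the other enzymes, the uptake genes and the fatty acid genes lie left of the line. Those of the isoprenoid genes lie left of it in TMP195 and Combo, and those of the genes that process SREBP around or right of it.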

How the data were processed

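The labels' protocols name spin-column RNA purification and a stranded kit for total RNA. Submitters' processing notes list Salmon with no version and hg38 as build, yet samples and identifiers are mouse. The authors deposited 1 table of variance-stabilised normalised counts, close to a log2 scale; the tool and annotation behind it are not stated. Such values compress differences of weakly expressed genes, and they hold no depth, so no counting interval was computed.

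Symbols were found for 95.13% of the 24334 identifiers. A gene was tested if 4 or more libraries exceeded the table's minimum by 1 log2 unit (15715 genes). limma 3.58.1 (R 4.3.3) fitted a mean per group over 16 libraries with an intensity trend, and two-sided p-values were adjusted over all genes (Benjamini-Hochberg, threshold 0.05). Correlations used 100000 permutations, within groups for centred values. The p-values reflect only how these libraries vary, which may be technical. Shares of all genes at an unadjusted p under 0.05 are given only for lower genes in the 3 comparisons with Vehicle, before any alternative. Members, lists and tests were chosen with earlier results of these data known. Named genes are the members, Insig2, Scap, Srebf1, Myc, the 2 genes of smallest p per list and treatment, and the 5 most like genes. Some cell type markers and the genes called with 1 library left out are also named. Some genes of the lists are not reported here by name. Near copies were sought with blastn 2.17.0 in GENCODE M21. Alternatives were other filters, moderation, scaling, weights, a replicate block, a leukocyte covariate, the compared groups alone, and left-out libraries; those leaving out Vehicle replicate 4 or 3 or all libraries numbered 4 for the lists were added after seeing the data.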

Additional observations from a re-analysis of the deposited data

Results flagged for a closer look

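Of 164 groups of 4 libraries examined, over 41 named genes, 8 held a library far from the other 3 (a gap to the nearest above Dixon's 95% critical value); chance flags about 1 in 20 groups. Among the members these were Srebf2 in MYCi975 replicate 3 (12.57, the others at most 12.44), Insig1 in Combo replicate 3 (10.85, the others at most 10.56) and Hmgcs1 in TMP195 replicate 2 (11.51, the others at least 11.67). Among the related genes they were Insig2 in Combo replicate 4 (10.52), Mbtps2 in TMP195 replicate 1 (11.21), Tmem97 in TMP195 replicate 3 (8.35), Abca1 in TMP195 replicate 1 (8.46) and Pdss1 in MYCi975 replicate 2 (9.49). Vehicle replicate 4 was not among them.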

How the results depend on the processing

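No difference of a member was called under any alternative, over 1296 values (smallest limma adjusted p = 0.362). All 8 members were lower than Vehicle in each treatment under every setting that kept all 16 libraries. Without all libraries numbered 4, the Combo against Vehicle differences were 0.0034 for Srebf2, 0.014 for Hmgcs1 and 0.015 for Nsdhl, all above 0, Mvk stood at -0.19 for TMP195, -0.22 for MYCi975 and -0.26 for Combo against Vehicle, and the member median was -0.049 for MYCi975 and 0.20 for the interaction. The cause was not tested. Differences near 0 between treated groups turned: for Combo against MYCi975, Mvk (0.054) with library quality weights and Cyp51 with the leukocyte covariate (-0.00068) and without all libraries numbered 4 (-0.014); for Combo against TMP195, Mvk (0.0048) and Fdps (0.11) with quality weights, Nsdhl (-0.011) with the covariate, and Fdps (0.10) and Sqle (0.012) without all libraries numbered 4.

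Leaving out 1 library at a time also turned the sign of Cyp51 (-0.093 to 0.13), Insig1 (-0.016 to 0.22), Mvk (-0.15 to 0.059), Sqle (-0.11 to 0.045), Srebf2 (-0.030 to 0.054) for Combo against MYCi975; Fdps (-0.16 to 0.12), Mvk (-0.19 to 0.034), Sqle (-0.076 to 0.081) for Combo against TMP195; Fdps (-0.46 to 0.0070) for TMP195 against Vehicle; Nsdhl (-0.26 to 0.015) for Combo against Vehicle. The member median then ran from 0.0063 to 0.16 for Combo against MYCi975, from 0.039 to 0.14 for Combo against TMP195, from -0.30 to -0.053 for Combo against Vehicle, from 0.22 to 0.51 for interaction, from -0.37 to -0.13 for MYCi975 against Vehicle, from -0.38 to -0.13 for TMP195 against Vehicle.

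Genes called numbered 0 in the fits reported and 1 for Combo against TMP195 without an intensity trend, 65 there with quality weights, and 1 for Combo against Vehicle fitted alone, none a member. Leaving out 1 library gave 0 to 2 for TMP195 against Vehicle and Combo against TMP195, 0 to 1 for MYCi975 against Vehicle and Combo against MYCi975, and 0 for the others. Without TMP195 replicate 3, the macrophage markers Csf1r and Ccr2 were called for TMP195 against Vehicle (1.60 and 1.65, limma adjusted p = 0.0030 and 0.018). They were also called for Combo against TMP195 (-1.37 and -1.59, limma adjusted p = 0.021 and 0.030). The remaining calls were Gm15801 without MYCi975 replicate 2 (1.77 for MYCi975 against Vehicle, -1.77 for Combo against MYCi975) and Cd93 without Combo replicate 4 (-1.16 for Combo against TMP195).

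For the relation with Srebf2, r lost its call after quantile normalisation for Insig1 (0.46), Fdps (0.51) and Nsdhl (0.16), without all libraries numbered 4 for Hmgcs1 (0.58) and Nsdhl (0.42), within groups for Hmgcs1 (0.61), Mvk (0.57), Fdps (0.62) and Nsdhl (0.44), and without the 2 libraries farthest in Srebf2 for Insig1 (0.51), Hmgcs1 (0.54), Mvk (0.31), Fdps (0.25), Sqle (0.63), Cyp51 (0.66) and Nsdhl (0.36).

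Same-numbered libraries of different groups deviated together in 15 of 24 pairs (correlation over 0.1, range -0.24 to 0.43), against 10 of 72 pairs of different number, and 9 of 16 libraries matched best a library of their own number, a hint of a shared effect from the data and not the design. Since not every same-numbered pair was over 0.1, the numbers were not taken as pairs, but this rule cannot exclude a shared effect. With the replicate block, no gene was called in any comparison, and the member medians stayed at -0.27, -0.24 and -0.17 for TMP195, MYCi975 and Combo. In these fits 2, 2 and 1 members had an unadjusted p under 0.05, with the share of all genes not reported here.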
